A study of Homo sapiens with 12 samples.

Results

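The genes described here encode eukaryotic translation initiation factors (eIF) and elongation factors (eEF), with their regulators. They were chosen by name: every probe set of the array that carried exactly 1 gene symbol starting with EIF or EEF and a digit was taken. One symbol left out is not analysed here. The rule gave 150 probe sets of 41097 with a single symbol, and these measured 61 genes of 19775. Of the 61 genes, 57 were sorted by the complex their products belong to, and 4 long noncoding transcripts named after a neighbouring factor gene were not. A further 16 probe sets carried several symbols with an EIF or EEF name among them and were not used. EIF4A1, EEF1B2, EEF1E1, EEF1G and EIF4EBP3 had no probe set of their own under this rule. One member is Y-linked, and it is counted but given no value.

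The study measured total RNA on 12 Affymetrix U133 Plus 2.0 arrays in HPB-ALL and KOPT-K1, established human T-cell acute lymphoblastic leukaemia lines. The 4 groups were HPB-ALL with SAHM1, HPB-ALL with DMSO, KOPT-K1 with SAHM1 and KOPT-K1 with DMSO, each with 3 cultures and 1 array per culture. SAHM1 is a hydrocarbon-stapled peptide derived from the co-activator mastermind-like and made to block the NOTCH transcription complex. It was given at 20 µM for 24 hours, and DMSO is its vehicle. Each group is a single line in culture, so the arrays of a group measure the spread between cultures and not between patients. Each deposited value divides an array's signal by the DMSO mean of its line and is given here as log2, so 0 is the DMSO level of that line and absolute levels are lost. A difference is SAHM1 minus DMSO on the log2 scale, ± the standard error from limma, and a gene was called when its Benjamini-Hochberg adjusted p over all 19775 genes was under 0.05.

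Translation begins when the ternary complex of eIF2, GTP and initiator methionyl-tRNA joins the small ribosomal subunit together with eIF1, eIF1A, eIF3 and eIF5. The cap-binding complex of eIF4E, eIF4G and eIF4A brings in the mRNA, and the 4E-binding proteins hold eIF4E back unless mTOR phosphorylates them. Kinases that phosphorylate the alpha subunit of eIF2 turn it into an inhibitor of its own exchange factor, eIF2B, and so lower initiation while ATF4 mRNA is translated more. In T-cell leukaemia NOTCH1 drives MYC, and MYC drives growth genes that include translation factors.

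The 5' ends of 5 members are shown first, to set the E-box CACGTG, the site that MYC binds with MAX, beside the changes given below. RefSeq promoter windows on GRCh38.p14, from 250 bases before to 50 bases after each gene start, were matched for 47 of the 61 genes, with 62 windows. CACGTG, which reads the same on both strands, occurred in 13 of the 62 windows (21.0%), against 2548 of all 35116 windows (7.26%). The windows of EIF1B and EIF1B-AS1 overlap on opposite strands and share 1 E-box, which is counted in both. Among windows of genes that fell in KOPT-K1, 5 of 20 held it (25.0%), against 8 of 42 windows of the other members (19.0%). TGATGNAA (TTNCATCA on the other strand), a composite element bound by ATF4 with a C/EBP protein, occurred in 1 of the 62 windows (1.61%), that of EIF4E3, against 3.62% of all windows. The 4 genes EIF4G1, EIF4B, EIF3F and EIF2S1 fell together in KOPT-K1, while EIF4E was not called in either line. These 5 are examples and do not stand for the members. By gene, 5 of 16 matched genes that fell in KOPT-K1 held an E-box, against 8 of 31 others. EIF4EBP1 and EIF2S2, which had the largest falls there, had no matched window. The windows are written 5' to 3' on the strand of the gene, with the E-box in capitals.
EIF4G1, chr3:184314356-184314655, plus strand: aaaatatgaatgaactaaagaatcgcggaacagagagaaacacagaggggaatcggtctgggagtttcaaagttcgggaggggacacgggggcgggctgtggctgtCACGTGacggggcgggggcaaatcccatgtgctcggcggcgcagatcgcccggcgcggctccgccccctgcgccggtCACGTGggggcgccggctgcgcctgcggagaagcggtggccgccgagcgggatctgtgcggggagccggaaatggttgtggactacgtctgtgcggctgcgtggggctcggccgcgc
EIF4B, chr12:53006206-53006505, plus strand: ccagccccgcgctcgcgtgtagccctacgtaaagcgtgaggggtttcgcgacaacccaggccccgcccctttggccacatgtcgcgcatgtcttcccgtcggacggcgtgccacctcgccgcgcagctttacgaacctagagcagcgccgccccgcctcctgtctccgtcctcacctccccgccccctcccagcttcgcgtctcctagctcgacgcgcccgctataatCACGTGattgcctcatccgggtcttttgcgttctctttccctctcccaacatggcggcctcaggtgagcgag
EIF3F, chr11:7987087-7987386, plus strand: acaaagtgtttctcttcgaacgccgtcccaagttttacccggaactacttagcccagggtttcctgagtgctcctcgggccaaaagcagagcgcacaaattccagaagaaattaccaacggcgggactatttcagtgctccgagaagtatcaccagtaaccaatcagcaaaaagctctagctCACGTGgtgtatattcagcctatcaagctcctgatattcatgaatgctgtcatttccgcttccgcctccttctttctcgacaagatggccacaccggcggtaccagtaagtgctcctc
EIF2S1, chr14:67360078-67360377, plus strand: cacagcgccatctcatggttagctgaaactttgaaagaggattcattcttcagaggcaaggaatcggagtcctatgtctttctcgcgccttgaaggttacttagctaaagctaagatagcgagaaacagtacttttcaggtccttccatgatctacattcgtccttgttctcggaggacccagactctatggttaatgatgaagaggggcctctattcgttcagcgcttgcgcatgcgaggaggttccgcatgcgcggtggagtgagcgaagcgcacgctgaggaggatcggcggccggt
EIF4E, chr4:98929084-98929383, minus strand: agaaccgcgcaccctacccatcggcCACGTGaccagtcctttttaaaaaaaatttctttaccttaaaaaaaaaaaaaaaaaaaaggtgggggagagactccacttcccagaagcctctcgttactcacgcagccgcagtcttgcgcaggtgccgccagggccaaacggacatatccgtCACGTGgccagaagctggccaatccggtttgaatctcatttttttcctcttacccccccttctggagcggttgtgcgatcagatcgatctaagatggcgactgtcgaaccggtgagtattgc
RefSeq gives EIF4G1 3 start windows, of which the 1 shown holds E-boxes and the other 2 hold none. Its E-boxes began 144 and 67 bases before that start, that of EIF4B 22 bases before it and that of EIF3F 68 bases before it. The window of EIF4E held an E-box 225 and another 72 bases before the start, and the window of EIF2S1 held none. A match in these letters is a description of the window and not a binding site.

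In HPB-ALL 4 of the 61 members rose and 7 fell with SAHM1, and in KOPT-K1 3 rose and 22 fell. The called share was 18% of members in HPB-ALL, where 9.34% of all genes were called (4.96% higher and 4.38% lower). It was 41% in KOPT-K1, where 19.0% of all genes were called (5.85% higher and 13.2% lower). The median difference of the members was -0.07 in HPB-ALL and -0.13 in KOPT-K1, beside medians over all genes of -0.02 in HPB-ALL and 0.00 in KOPT-K1. All 3 SAHM1 arrays lay below all 3 DMSO arrays for 21 members in HPB-ALL (15.7% of all genes) and for 31 members in KOPT-K1 (21.6% of all genes). They lay above them for 8 members in HPB-ALL (13.4% of all genes) and 6 in KOPT-K1 (13.5% of all genes). Most changes were small. The called members lay between -0.34 and 0.66 in HPB-ALL, and outside EIF4EBP1 and EIF2S2 those of KOPT-K1 lay between -0.48 and 0.39.

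**Figure D1:**
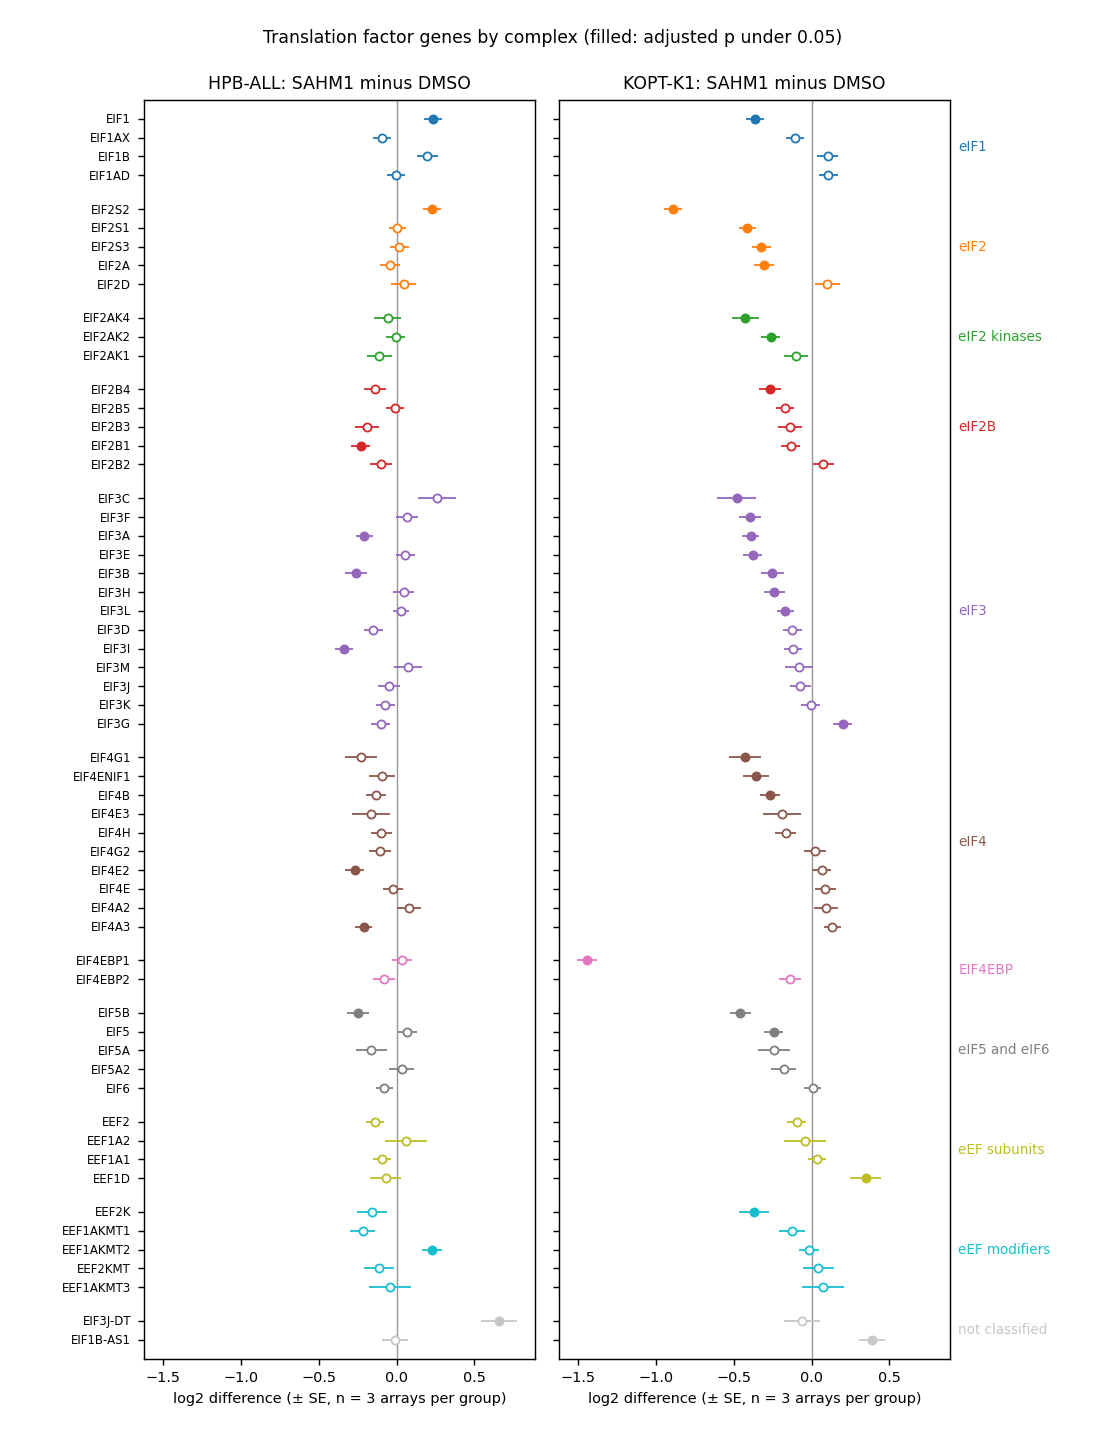
SAHM1 minus DMSO on the log2 scale for each translation factor gene with a value given, HPB-ALL on the left and KOPT-K1 on the right, with genes grouped by complex and bars of 1 SE (n = 3 arrays per group). Filled points had a limma adjusted p under 0.05. EIF4EBP1 at -1.45 and EIF2S2 at -0.89 stand apart from the other genes in KOPT-K1, and the other members lie between -0.48 and 0.39 there.

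Control probe sets moved with the treatment beside these counts. Probe sets for 18S ribosomal RNA averaged 1.73, 1.89 and 1.35 in HPB-ALL with SAHM1, against 1.05, -1.01 and -1.65 with DMSO (difference 2.19, exact two-sided permutation p = 0.10, the smallest that 3 against 3 can give). With the 18S level as a covariate, 0 of the 11 calls among members in HPB-ALL were kept by limma, although 11 members had an unadjusted p under 0.05, and 52 genes of the array were called. The sizes of the 11 differences called without the covariate ran from 52.4 to 134.1% of the reported ones, with 5 as large or larger. EIF1 was at 0.29 with the covariate, against 0.24 as reported, and EIF3B was at -0.14, against -0.26. In KOPT-K1 the 18S level differed by -0.26 (exact permutation p = 0.20), and 23 of 25 calls were kept with that covariate. The 18 hybridization spike probe sets, which detect control transcripts added before hybridization, averaged 0.60, 0.85 and 1.05 in KOPT-K1 with SAHM1, against 0.01, 0.01 and -0.02 with DMSO (difference 0.83, exact permutation p = 0.10). With the spike level as a covariate 5 of the 25 calls in KOPT-K1 were kept, those of EIF4EBP1, EIF2S2, EIF2S1, EIF3A and EIF3E, and under quantile normalization 2 were kept, those of EIF4EBP1 and EIF2S2. The sizes of the 25 differences in KOPT-K1 ran from 46.1 to 120.6% of the reported ones with the spike covariate, with 7 as large or larger, and from 58.1 to 71.5% under quantile normalization. The part of the 18S and spike levels in the changes was not tested. The ACTB probe set for the 5' end, set against that for the 3' end, was lower with SAHM1 by 0.24 in HPB-ALL and by 0.17 in KOPT-K1, without overlap (exact permutation p = 0.10 in each line), while the same contrast for GAPDH differed by -0.01 in HPB-ALL and 0.01 in KOPT-K1 (p = 0.70 and 0.80). The part of this 5' to 3' shift in the changes was not tested. No called member turned its sign under any alternative. Of T-lineage markers, CD3G rose and CD7 and LCK fell in HPB-ALL among 7 measured, and 0 were called in KOPT-K1 (2 at an unadjusted p under 0.05 by limma). Of 7 B-cell, myeloid and erythroid markers measured, MS4A1 alone was called, higher by 0.32 ± 0.07 in KOPT-K1 (adjusted p = 0.00592), and levels of markers cannot be read from ratios.

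The largest change of the family was a fall of EIF4EBP1, which encodes 4E-BP1, the main repressor of the cap-binding factor eIF4E. EIF4EBP1 stood at -1.42, -1.52 and -1.40 in KOPT-K1 with SAHM1, against 0.07, -0.01 and -0.07 with DMSO. The 3 treated KOPT-K1 cultures lay close together and far below the DMSO cultures. The difference of -1.45 ± 0.07 was a 2.72-fold fall (limma adjusted p = 6.69e-08). In HPB-ALL EIF4EBP1 stood at 0.07, -0.06 and 0.10 with SAHM1, against -0.04, 0.03 and 0.01 with DMSO. These groups overlapped, and the difference was 0.04 ± 0.07 (adjusted p = 0.821). The responses of the lines differed by 1.48 ± 0.09, HPB-ALL minus KOPT-K1 (adjusted p = 1.19e-06). The fall in KOPT-K1 was called under all 14 alternatives tried and ran from -1.48 to -0.85, the smallest size coming from quantile normalization. The gene rested on 1 probe set. EIF4EBP2, the second 4E-binding protein, was not called: -0.08 ± 0.07 in HPB-ALL (adjusted p = 0.577) and -0.14 ± 0.07 in KOPT-K1 (adjusted p = 0.193).

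**Figure D2:**
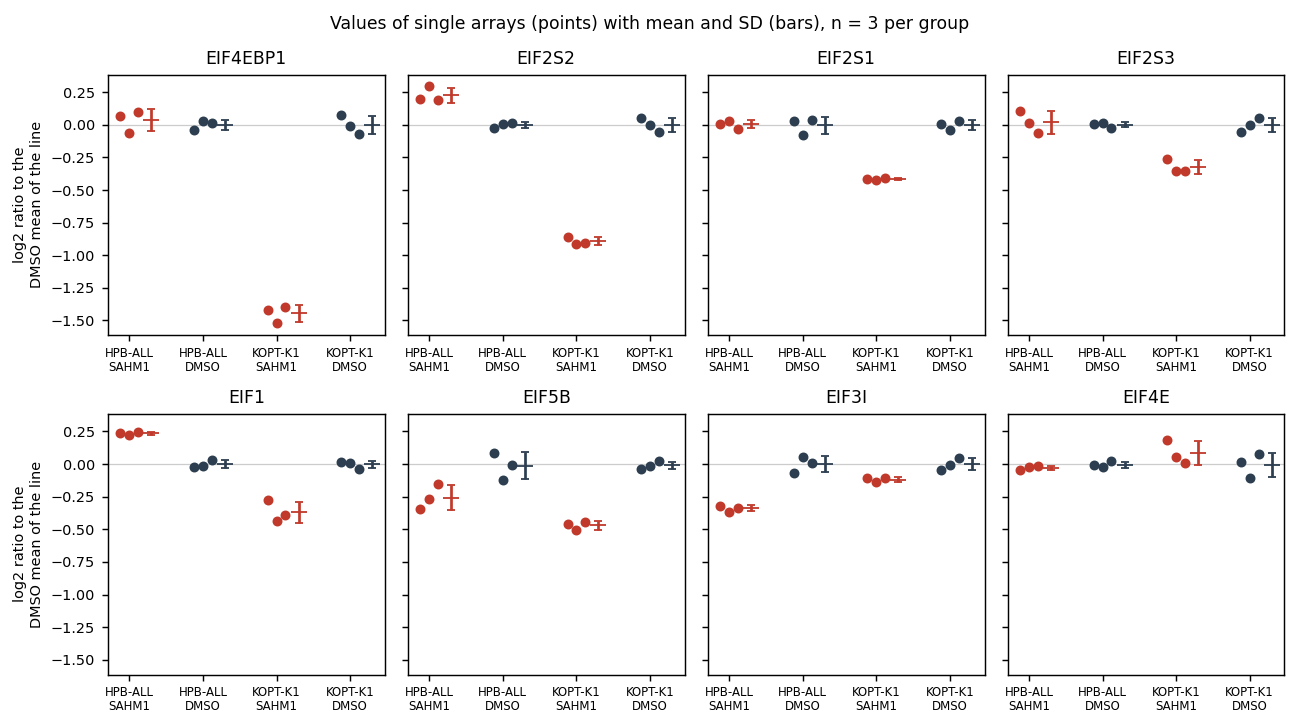
Log2 ratio to the line's own DMSO mean in each of the 12 arrays for 8 genes, as points, with the mean and SD of the 3 arrays of a group as bars (red SAHM1, dark DMSO). EIF4EBP1 and the 3 eIF2 subunit genes lie below DMSO in KOPT-K1, EIF1 and EIF2S2 stand above DMSO in HPB-ALL and below it in KOPT-K1, and EIF4E overlaps DMSO in both lines.

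The cap-binding partners of eIF4E moved less. EIF4E itself, on 5 probe sets, stood at -0.04, -0.02 and -0.02 in HPB-ALL with SAHM1, against -0.01, -0.02 and 0.02 with DMSO. In KOPT-K1 it stood at 0.19, 0.06 and 0.01 with SAHM1, against 0.02, -0.11 and 0.07 with DMSO. The groups overlapped in both lines, with differences of -0.02 ± 0.07 in HPB-ALL (adjusted p = 0.885) and 0.09 ± 0.07 in KOPT-K1 (adjusted p = 0.378). Of the 10 eIF4 genes measured, 2 fell in HPB-ALL and 3 fell in KOPT-K1, with a median of -0.12 in HPB-ALL and -0.07 in KOPT-K1. EIF4G1, the scaffold that joins eIF4E to eIF4A and eIF3, stood at -0.47, -0.58 and -0.25 in KOPT-K1 with SAHM1, against 0.00, 0.02 and -0.03 with DMSO. It fell by 0.43 ± 0.10 there (adjusted p = 0.0113) and differed by -0.23 ± 0.10 in HPB-ALL (adjusted p = 0.205). Fits of single probe sets called 6.33% of all sets in HPB-ALL and 16.2% in KOPT-K1. The 2 probe sets of EIF4G1, neither of them called alone in KOPT-K1, disagreed in HPB-ALL: one was at -0.58 ± 0.14 (adjusted p = 0.0257) and the other at 0.12 ± 0.19 (adjusted p = 0.799). EIF4B, which stimulates the helicase eIF4A, fell by 0.27 ± 0.06 in KOPT-K1 (adjusted p = 0.0104) and was at -0.13 ± 0.06 in HPB-ALL (adjusted p = 0.243). Of its 3 probe sets 1 was called alone in KOPT-K1, at -0.40, with the others at -0.17 and -0.23. In HPB-ALL the EIF4B sets disagreed, from -0.44, which was called, to 0.16. EIF4ENIF1, which shuttles eIF4E into the nucleus and was picked out after its values were seen, was the third to fall in KOPT-K1, by 0.36 ± 0.08 (adjusted p = 0.0108). Its 2 probe sets were at -0.60, which was called, and -0.11 there. EIF4A2, a second eIF4A helicase gene, was not called in either line (0.08 ± 0.08 in HPB-ALL and 0.10 ± 0.08 in KOPT-K1).

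The eIF4 genes that fell in HPB-ALL were others. EIF4E2, a cap-binding homologue that represses translation of the mRNAs it holds, stood at -0.32, -0.22 and -0.27 with SAHM1, against -0.02, -0.01 and 0.03 with DMSO. It fell by 0.27 ± 0.06 in HPB-ALL (adjusted p = 0.0153) and showed 0.07 ± 0.06 in KOPT-K1 (adjusted p = 0.485), a difference between lines of -0.33 ± 0.09 (adjusted p = 0.0186). EIF4A3, a helicase of the exon junction complex rather than of the cap-binding complex, stood at -0.24, -0.22 and -0.18 in HPB-ALL with SAHM1, against 0.03, 0.03 and -0.05 with DMSO. It fell by 0.21 ± 0.06 in HPB-ALL (adjusted p = 0.0334) and showed 0.13 ± 0.06 in KOPT-K1 (adjusted p = 0.118), a difference between lines of -0.34 ± 0.08 (adjusted p = 0.0113). The call of EIF4E2 in HPB-ALL was kept in 3 of the 6 fits that left out 1 array of the line and that of EIF4A3 in 0 of 6, with the 18S level moving as given above.

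All 3 subunits of eIF2, the factor that delivers the initiator tRNA, fell in KOPT-K1. EIF2S2, the beta subunit, stood at -0.86, -0.91 and -0.91 in KOPT-K1 with SAHM1, against 0.05, 0.00 and -0.06 with DMSO. It fell by 0.89 ± 0.06 (adjusted p = 9.62e-07) and, like EIF4EBP1, was called under all 14 alternatives, from -0.92 to -0.53. In HPB-ALL EIF2S2 moved the other way, at 0.20, 0.29 and 0.19 with SAHM1, against -0.03, 0.01 and 0.02 with DMSO. That rise of 0.23 ± 0.06 was called (adjusted p = 0.0257), but in 0 of 6 fits that left out 1 array of the line. The lines' responses differed by 1.12 ± 0.08 (adjusted p = 3.91e-06). Both probe sets of EIF2S2 showed the same: 0.21 and 0.24 in HPB-ALL, neither called alone, and -0.91 and -0.87 in KOPT-K1, both called.

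EIF2S1, the alpha subunit that the stress kinases phosphorylate, stood at -0.41, -0.42 and -0.41 in KOPT-K1 with SAHM1, against 0.01, -0.04 and 0.03 with DMSO. It fell by 0.41 ± 0.06 there (adjusted p = 0.000439), with all 3 probe sets called, and was at 0.01 ± 0.06 in HPB-ALL (adjusted p = 0.968). EIF2S3, the gamma subunit that binds GTP and the tRNA, stood at -0.26, -0.35 and -0.36 in KOPT-K1 with SAHM1, against -0.06, 0.00 and 0.05 with DMSO. It fell by 0.32 ± 0.06 (adjusted p = 0.00372) and was at 0.02 ± 0.06 in HPB-ALL (adjusted p = 0.908). In HPB-ALL the treated and DMSO arrays overlapped for both genes. The difference between lines was 0.42 ± 0.08 for EIF2S1 (adjusted p = 0.0038) and 0.34 ± 0.09 for EIF2S3 (adjusted p = 0.0194). Over the 5 genes of the eIF2 group, which also holds the alternative initiator-tRNA carriers EIF2A and EIF2D, 4 fell in KOPT-K1 with a group median of -0.32, and 1 rose in HPB-ALL with a median of 0.02. EIF2A was the fourth to fall in KOPT-K1 (-0.31 ± 0.06, adjusted p = 0.0053), and EIF2D was not called in either line. Both were picked out after their values were seen.

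The 3 kinases of eIF2 alpha analysed here were not called in HPB-ALL (0 at an unadjusted p under 0.05 by limma), and 2 of them fell in KOPT-K1. EIF2AK4, the amino acid sensor GCN2, stood at -0.47, -0.48 and -0.33 in KOPT-K1 with SAHM1, against 0.11, -0.07 and -0.05 with DMSO, and fell by 0.43 ± 0.09 (adjusted p = 0.00519). Both of its probe sets were called there, and in HPB-ALL it was at -0.06 ± 0.09 (adjusted p = 0.782). EIF2AK2, the double-stranded RNA sensor PKR, fell by 0.26 ± 0.06 in KOPT-K1 (adjusted p = 0.0117) and was at -0.01 ± 0.06 in HPB-ALL (adjusted p = 0.973). EIF2AK1, the heme-regulated kinase, was not called: -0.11 ± 0.08 in HPB-ALL and -0.10 ± 0.08 in KOPT-K1. For neither kinase that fell was the difference between lines called, at 0.37 ± 0.12 for EIF2AK4 (adjusted p = 0.0582) and 0.26 ± 0.09 for EIF2AK2 (adjusted p = 0.0649).

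Among the 5 subunits of eIF2B, the exchange factor that reloads eIF2 with GTP, 1 fell in each line. In HPB-ALL it was EIF2B1, the alpha subunit, at -0.25, -0.25 and -0.19 with SAHM1, against -0.03, 0.09 and -0.07 with DMSO (-0.23 ± 0.06, adjusted p = 0.0355). In KOPT-K1 it was EIF2B4, the delta subunit, at -0.17, -0.32 and -0.33 with SAHM1, against 0.13, -0.05 and -0.08 with DMSO (-0.27 ± 0.07, adjusted p = 0.0197). The group median was -0.14 in HPB-ALL and -0.14 in KOPT-K1. EIF2B5, the catalytic epsilon subunit, was at -0.01 ± 0.06 in HPB-ALL and -0.17 ± 0.06 in KOPT-K1 (adjusted p = 0.0563). Its 2 probe sets disagreed in KOPT-K1, with 1 called alone at -0.35 (limma adjusted p = 0.0151) and the other at 0.01 (adjusted p = 0.957). EIF2B2 and EIF2B3 were at -0.10 and -0.19 in HPB-ALL and 0.08 and -0.14 in KOPT-K1 and were not called. None of the 5 differed between lines by limma (0 at an unadjusted p under 0.05). Leaving out 1 array ended the call of EIF2B1 in 6 of 6 fits. The call of EIF2B4 ended without KOPT-K1 DMSO culture 1 (-0.20, adjusted p = 0.0807), SAHM1 culture 2 (-0.24, adjusted p = 0.065) or SAHM1 culture 3 (-0.24, adjusted p = 0.0608).

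Of the factors that scan for the start codon, EIF1 changed in opposite directions in the lines. EIF1, whose product guards start codon selection, stood at 0.24, 0.22 and 0.25 in HPB-ALL with SAHM1, against -0.02, -0.02 and 0.03 with DMSO. In KOPT-K1 it stood at -0.28, -0.43 and -0.39 with SAHM1, against 0.02, 0.01 and -0.04 with DMSO. EIF1 thus rose by 0.24 ± 0.06 in HPB-ALL (adjusted p = 0.0217) and fell by 0.36 ± 0.06 in KOPT-K1 (adjusted p = 0.00115), without overlap in either line. The difference between lines was 0.60 ± 0.08 (adjusted p = 0.000607). Of its 7 probe sets all were above 0 in HPB-ALL (3 called) and all were below 0 in KOPT-K1 (4 called), though they spread from -1.02 to -0.07 there. EIF1 and EIF2S2 were the members called in opposite directions in the lines. The rise of EIF1 in HPB-ALL was called in 1 of 6 fits that left out 1 array, and the fall in KOPT-K1 in 6 of 6. EIF1AX, the X-linked gene of eIF1A, was at -0.09 ± 0.06 in HPB-ALL and -0.11 ± 0.06 in KOPT-K1 and was not called.

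EIF5B, the GTPase that joins the ribosomal subunits, fell in both lines. It stood at -0.35, -0.27 and -0.16 in HPB-ALL with SAHM1, against 0.09, -0.12 and 0.00 with DMSO. In KOPT-K1 it stood at -0.46, -0.51 and -0.44 with SAHM1, against -0.04, -0.01 and 0.02 with DMSO. The falls were 0.25 ± 0.07 in HPB-ALL (adjusted p = 0.0419) and 0.46 ± 0.07 in KOPT-K1 (adjusted p = 0.000946), and their difference of 0.21 ± 0.10 was not called (adjusted p = 0.162). Of 6 probe sets 1 was called in HPB-ALL and 4 in KOPT-K1. The call in HPB-ALL was kept in 2 of 6 fits that left out 1 array. EIF5, the GTPase activator of eIF2, was at 0.07 ± 0.06 in HPB-ALL (adjusted p = 0.56) and fell by 0.24 ± 0.06 in KOPT-K1 (adjusted p = 0.0126), a difference between lines of 0.31 ± 0.08 (adjusted p = 0.0222). That fall was not called without KOPT-K1 DMSO culture 1 (-0.20, adjusted p = 0.0546), nor from its probe sets without the suffix _x_at or _s_at (-0.11, adjusted p = 0.527). EIF5A, an elongation and termination factor despite its name, was at -0.16 ± 0.10 in HPB-ALL and -0.24 ± 0.10 in KOPT-K1 (adjusted p = 0.117). EIF6, which keeps the ribosomal subunits apart, was at -0.08 ± 0.05 in HPB-ALL and 0.01 ± 0.05 in KOPT-K1.

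eIF3, the scaffold that links the small subunit to the mRNA complex, had all 13 of its subunit genes measured. In HPB-ALL 3 fell, with a median of -0.05. In KOPT-K1 7 fell and 1 rose, with a median of -0.17, and 12 of the 13 lay below 0. EIF3A, the largest core subunit, stood at -0.16, -0.25 and -0.22 in HPB-ALL with SAHM1, against -0.03, -0.01 and 0.04 with DMSO. In KOPT-K1 it stood at -0.37, -0.44 and -0.37 with SAHM1, against -0.02, 0.01 and 0.01 with DMSO. It fell by 0.21 ± 0.05 in HPB-ALL (adjusted p = 0.033) and by 0.39 ± 0.05 in KOPT-K1 (adjusted p = 0.000554), with all 3 probe sets called in KOPT-K1 and 0 called alone in HPB-ALL. EIF3B, its core partner, fell by 0.26 ± 0.07 in HPB-ALL (adjusted p = 0.0417) and by 0.25 ± 0.07 in KOPT-K1 (adjusted p = 0.0305). The 6 probe sets of EIF3B split: in HPB-ALL 3 were called, from -0.51 to -0.41, while another was at 0.24, and in KOPT-K1 1 at -0.84 was called while the others lay between -0.23 and 0.05. With EIF5B, these were the 3 members called lower in both lines.

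The other eIF3 subunits that fell were called in 1 line, and not all of them differed between lines. EIF3I, a core subunit with WD repeats, stood at -0.32, -0.36 and -0.33 in HPB-ALL with SAHM1, against -0.07, 0.06 and 0.01 with DMSO, and fell by 0.34 ± 0.06 (adjusted p = 0.00275). Of the protein-coding members it was the one whose call in HPB-ALL was kept in all 6 fits that left out 1 array, and the 18S covariate alone of the 14 alternatives ended the call (-0.27, adjusted p = 0.397). EIF3I rested on 1 probe set. In KOPT-K1 EIF3I was at -0.12 ± 0.06 (adjusted p = 0.164), and the difference between lines was not called (-0.22 ± 0.08, adjusted p = 0.0771). EIF3F, a subunit of the MPN-domain module, stood at -0.46, -0.33 and -0.41 in KOPT-K1 with SAHM1, against 0.03, -0.07 and 0.03 with DMSO. It fell by 0.39 ± 0.07 (adjusted p = 0.00241), was at 0.07 ± 0.07 in HPB-ALL (adjusted p = 0.639), and 1 of its 3 probe sets, at -0.77, was called alone. EIF3E, a subunit of the PCI-domain module, stood at -0.42, -0.37 and -0.36 in KOPT-K1 with SAHM1, against 0.03, 0.07 and -0.12 with DMSO. It fell by 0.38 ± 0.06 (adjusted p = 0.0015) and was at 0.06 ± 0.06 in HPB-ALL (adjusted p = 0.667). Of its 2 probe sets in KOPT-K1, 1 at -0.56 was called alone and the other was at -0.20 (adjusted p = 0.0583). The lines differed by 0.46 ± 0.10 for EIF3F (adjusted p = 0.00758) and by 0.44 ± 0.09 for EIF3E (adjusted p = 0.00555), with 1 probe set of each called alone.

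EIF3C stood at 0.20, 0.11 and 0.44 in HPB-ALL with SAHM1, against 0.24, -0.16 and -0.12 with DMSO. In KOPT-K1 it stood at -0.65, -0.52 and -0.29 with SAHM1, against -0.11, 0.00 and 0.10 with DMSO. It was at 0.26 ± 0.12 in HPB-ALL (adjusted p = 0.242), fell by 0.48 ± 0.12 in KOPT-K1 (adjusted p = 0.0171), and the lines differed by 0.74 ± 0.17 (adjusted p = 0.0125). EIF3C is uncertain, because its near-identical copy EIF3CL can share its signal and the gene rested on 1 probe set. The fall was not called without KOPT-K1 DMSO culture 3 (-0.43, adjusted p = 0.0604) or SAHM1 culture 1 (-0.40, adjusted p = 0.0593). EIF3H and EIF3L, which belong to the same outer modules as EIF3F and EIF3E, fell in KOPT-K1 by 0.24 ± 0.07 (adjusted p = 0.0277) and 0.17 ± 0.05 (adjusted p = 0.0423), and EIF3G, an RNA-binding subunit, rose there by 0.20 ± 0.06 (adjusted p = 0.038). The difference between lines was not called for EIF3H (0.29 ± 0.10, adjusted p = 0.0609) or EIF3L (0.20 ± 0.07, adjusted p = 0.0894), and it was called for EIF3G (-0.30 ± 0.09, adjusted p = 0.032), though in only 5 of 19 alternatives. Leaving out 1 array of KOPT-K1 kept the call of EIF3B in 3 of 6 fits, of EIF3H in 2, and of EIF3L and EIF3G in 0. Leaving out 1 array of HPB-ALL kept that of EIF3A in 1 of 6 fits and that of EIF3B in 2. EIF3D, EIF3J, EIF3K and EIF3M were not called in either line, with differences between -0.15 and 0.07 in HPB-ALL and between -0.12 and -0.01 in KOPT-K1.

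**Figure D3:**
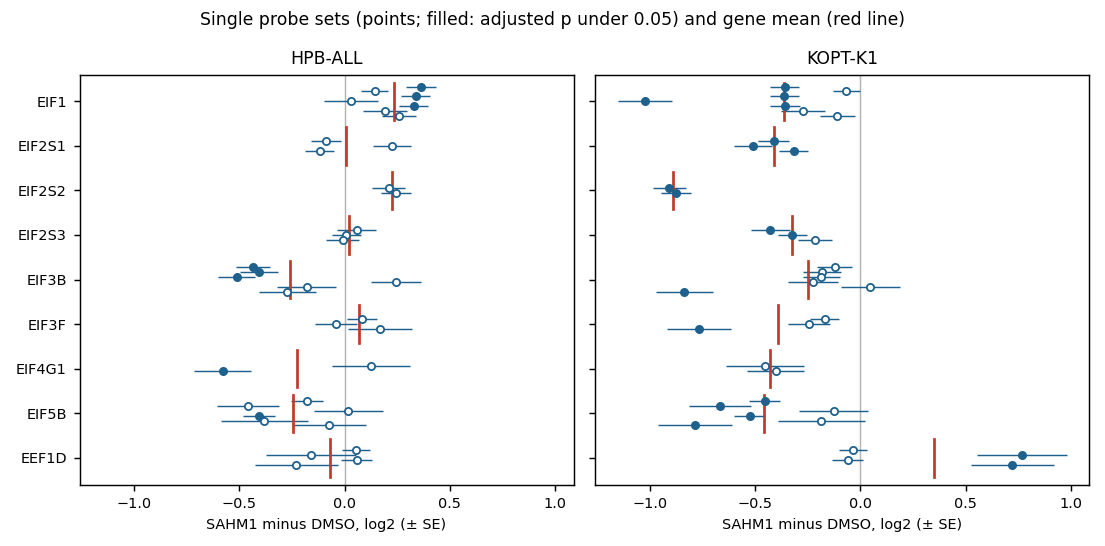
SAHM1 minus DMSO (log2, bars of 1 SE) for every single probe set of 9 genes, HPB-ALL on the left and KOPT-K1 on the right; filled points had an adjusted p under 0.05 and red lines mark the gene mean. Probe sets of EIF2S2 lie together at -0.91 and -0.87 in KOPT-K1, while those of EIF1, EIF3B and EEF1D spread widely, from -0.06 to 0.77 for EEF1D in KOPT-K1.

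Elongation factors moved little. Of the 4 eEF genes measured, 0 were called in HPB-ALL (1 at an unadjusted p under 0.05 by limma) and 1 rose in KOPT-K1. EEF1A1, which delivers aminoacyl-tRNA to the ribosome, stood at -0.09, -0.11 and -0.09 in HPB-ALL with SAHM1, against -0.01, 0.04 and -0.04 with DMSO. In KOPT-K1 it stood at -0.03, 0.03 and 0.10 with SAHM1, against -0.06, 0.03 and 0.03 with DMSO. The differences were -0.10 ± 0.06 in HPB-ALL (adjusted p = 0.38) and 0.04 ± 0.06 in KOPT-K1 (adjusted p = 0.714). EEF2, the translocase, was at -0.14 ± 0.06 in HPB-ALL (adjusted p = 0.178) and -0.10 ± 0.06 in KOPT-K1 (adjusted p = 0.275). EEF1A1 and other factors have processed pseudogenes, so their probe sets can share signal. EEF1D, a subunit of the exchange factor for eEF1A, rose by 0.35 ± 0.10 in KOPT-K1 (adjusted p = 0.0276) and was at -0.07 ± 0.10 in HPB-ALL (adjusted p = 0.763). That rise came from 2 of 4 probe sets, at 0.77 and 0.72, while the others were at -0.03 and -0.06, and it was called in 1 of 6 fits that left out 1 array.

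Among the 5 enzymes that modify elongation factors, 1 rose in HPB-ALL and 1 fell in KOPT-K1. EEF1AKMT2, a lysine methyltransferase of eEF1A, stood at 0.27, 0.18 and 0.21 in HPB-ALL with SAHM1, against -0.04, 0.02 and 0.00 with DMSO. It rose by 0.23 ± 0.06 in HPB-ALL (adjusted p = 0.038), in 0 of 6 fits that left out 1 array, and showed -0.02 ± 0.06 in KOPT-K1 (adjusted p = 0.892). Of its 3 probe sets 1 was called alone in HPB-ALL, at 0.45, with the others at 0.29 and -0.06. EEF2K, the kinase that inactivates eEF2, stood at -0.39, -0.61 and -0.12 in KOPT-K1 with SAHM1, against 0.02, 0.01 and -0.04 with DMSO. It fell by 0.37 ± 0.10 there (adjusted p = 0.0206) and was at -0.16 ± 0.10 in HPB-ALL (adjusted p = 0.399). Its treated KOPT-K1 cultures were spread widely. The call ended without SAHM1 culture 2 (-0.25, adjusted p = 0.0665), DMSO culture 1 (-0.36, adjusted p = 0.0619) or DMSO culture 2 (-0.36, adjusted p = 0.0595).

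Of the noncoding transcripts, EIF3J-DT, which is transcribed divergently from EIF3J, had the largest rise in HPB-ALL. It stood at 0.62, 0.71 and 0.64 with SAHM1, against 0.13, -0.08 and -0.06 with DMSO, and rose by 0.66 ± 0.12 (adjusted p = 0.00432), in all 6 fits that left out 1 array. In KOPT-K1 it was at -0.06 ± 0.12 (adjusted p = 0.761), and the lines differed by 0.72 ± 0.17 (adjusted p = 0.0117). EIF3J-DT rested on 1 probe set. EIF3J itself was at -0.05 ± 0.07 in HPB-ALL and -0.07 ± 0.07 in KOPT-K1. EIF1B-AS1, antisense to EIF1B, stood at 0.35, 0.53 and 0.27 in KOPT-K1 with SAHM1, against -0.06, -0.10 and 0.15 with DMSO. It rose by 0.39 ± 0.08 in KOPT-K1 (adjusted p = 0.00667) and was at -0.01 ± 0.08 in HPB-ALL (adjusted p = 0.972). The 2 further noncoding transcripts were not called in either line.

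The lines were compared directly for all 61 members. The HPB-ALL response exceeded the KOPT-K1 response in 10 and was below it in 4, or 23.0% of members, where 16.8% of all genes differed (11.4% with a higher and 5.41% with a lower response in HPB-ALL). The 10 were EIF4EBP1, EIF2S2, EIF3C, EIF3J-DT, EIF1, EIF3F, EIF3E, EIF2S1, EIF2S3 and EIF5, and the 4 were EIF1B-AS1, EIF4A3, EIF4E2 and EIF3G. Differences had the same sign in both lines for 30 of 61 members, and for 8818 of 19775 genes over the array. Across the members the correlation of the responses was r = -0.07, and across all genes it was -0.14; genes are not independent replicates, and the members of a line share its arrays. There were 5 members called in both lines, 6 in HPB-ALL alone, 20 in KOPT-K1 alone and 30 in neither, where being called in 1 line is not by itself a difference between lines.

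**Figure D4:**
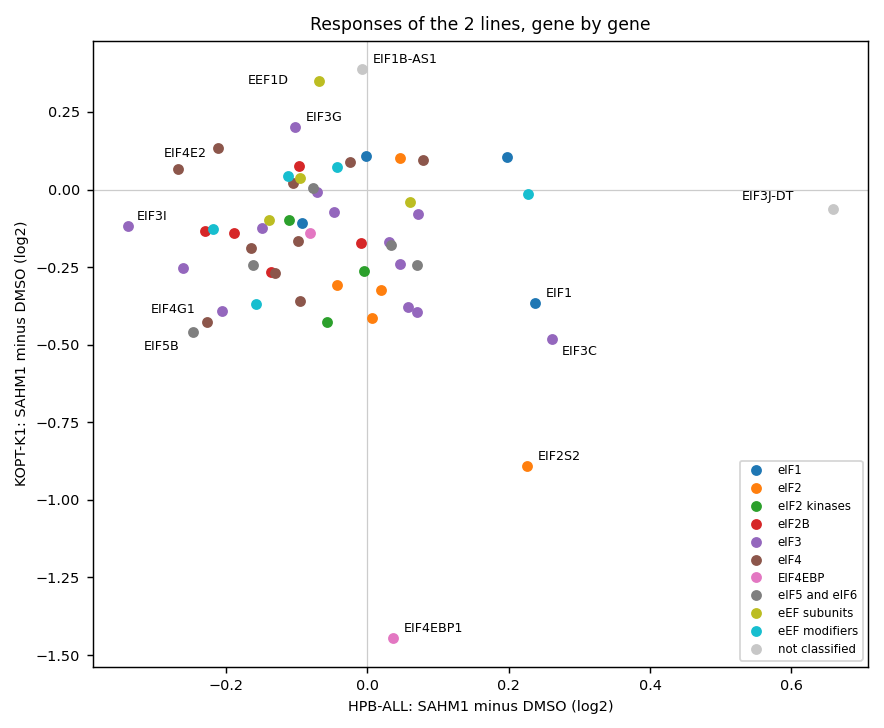
Response of each translation factor gene in HPB-ALL (horizontal axis) and KOPT-K1 (vertical axis), both as SAHM1 minus DMSO on the log2 scale, coloured by complex. The responses show little correlation between the lines (r = -0.07 over 61 members, including 3 not drawn). Of the members 40 lie below 0 in HPB-ALL and 43 in KOPT-K1, beside 11130 and 9887 of all 19775 genes. EIF4EBP1 and EIF2S2 lie low on the KOPT-K1 axis while near 0 or above it in HPB-ALL.

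Other genes of translation and its control were read from a list of 37, of which 35 were measured. In HPB-ALL 3 rose and 6 fell, and in KOPT-K1 2 rose and 10 fell, with a median of -0.03 in HPB-ALL and -0.08 in KOPT-K1. Over all genes 9.34% were called in HPB-ALL (4.96% higher and 4.38% lower) and 19.0% in KOPT-K1 (5.85% higher and 13.2% lower). ATF4, the transcription factor whose translation rises when eIF2 is phosphorylated, rose by 0.23 ± 0.06 in HPB-ALL (adjusted p = 0.0299) and fell by 0.36 ± 0.06 in KOPT-K1 (adjusted p = 0.00147). MTIF2, the mitochondrial initiation factor, likewise rose by 0.32 ± 0.08 in HPB-ALL (adjusted p = 0.0249) and fell by 0.60 ± 0.08 in KOPT-K1 (adjusted p = 0.000428). MTRF1, a mitochondrial release factor homologue, rose by 0.31 ± 0.08 in HPB-ALL (adjusted p = 0.0318) and fell by 0.30 ± 0.08 in KOPT-K1 (adjusted p = 0.0257). These were the 3 rises in HPB-ALL, and all 3 differed between lines, by 0.59 for ATF4, 0.93 for MTIF2 and 0.61 for MTRF1 (adjusted p = 0.000809, 0.000342 and 0.00425). ABCE1, which recycles ribosomes, fell by 0.31 ± 0.05 in HPB-ALL (adjusted p = 0.00348) and 0.38 ± 0.05 in KOPT-K1 (adjusted p = 0.000568). ETF1, the release factor eRF1, fell by 0.27 ± 0.07 in HPB-ALL (adjusted p = 0.041) and 0.50 ± 0.07 in KOPT-K1 (adjusted p = 0.0009). PPP1R15B, which directs a phosphatase to eIF2 alpha, was at 0.19 ± 0.06 in HPB-ALL (adjusted p = 0.0788) and fell by 0.45 ± 0.06 in KOPT-K1 (adjusted p = 0.000571). ATF4, MTIF2 and PPP1R15B each rested on 1 probe set. The alternatives were read out for the members and not for the genes of this list. With the 18S level as a covariate, 52 genes of the whole array were called in HPB-ALL.

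Between lines 4 of the 35 genes had a higher response in HPB-ALL and 2 a lower one. These counts lay near the shares over all genes, 11.4% higher and 5.41% lower. The 4 were ATF4, MTIF2, MTRF1 and PPP1R15B, the last by 0.64 (adjusted p = 0.000734). The 2 were genes of mTORC1, the kinase complex that phosphorylates the 4E-binding proteins. RPTOR, its scaffold, fell by 0.61 ± 0.14 in HPB-ALL (adjusted p = 0.0198) and showed 0.19 ± 0.14 in KOPT-K1 (adjusted p = 0.384), a difference of -0.80 (adjusted p = 0.0184). In HPB-ALL RPTOR stood at -0.39, -0.80 and -0.67 with SAHM1, against -0.29, 0.20 and 0.04 with DMSO. MLST8, a further subunit that was picked out after its values were seen, was at -0.38 ± 0.11 in HPB-ALL (adjusted p = 0.0529) and 0.12 ± 0.11 in KOPT-K1 (adjusted p = 0.479), a difference of -0.50 (adjusted p = 0.0467). LARP1, an mTORC1 target that binds mRNAs of the translation machinery, fell by 0.44 ± 0.07 in HPB-ALL (adjusted p = 0.00237) and 0.38 ± 0.07 in KOPT-K1 (adjusted p = 0.0033). GCN1, the activator of GCN2, fell by 0.35 ± 0.09 in HPB-ALL (adjusted p = 0.0242) and 0.28 ± 0.09 in KOPT-K1 (adjusted p = 0.0414). The 2 rises in KOPT-K1 were PAIP2, an inhibitor of the poly(A)-binding protein, at 0.33 ± 0.07 (adjusted p = 0.00578), and the S6 kinase gene RPS6KB2, at 0.36 ± 0.09 (adjusted p = 0.0143). MTOR was at -0.13 ± 0.12 in HPB-ALL and -0.13 ± 0.12 in KOPT-K1 and was not called. RPTOR, MLST8 and RPS6KB2 each rested on 1 probe set.

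**Figure D5:**
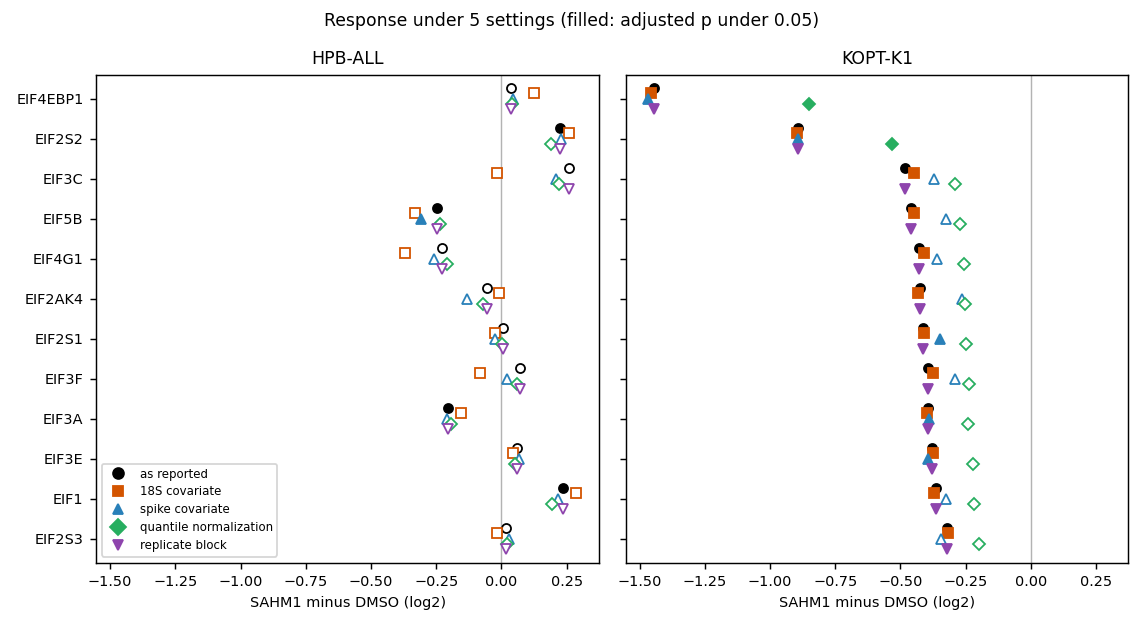
SAHM1 minus DMSO (log2) of 12 members as reported and under 4 alternatives (18S covariate, spike covariate, quantile normalization, replicate block), HPB-ALL on the left and KOPT-K1 on the right; filled symbols had an adjusted p under 0.05. In KOPT-K1 EIF4EBP1 and EIF2S2 are filled under every setting drawn, and quantile normalization moves them to -0.85 and -0.53.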

How the data were processed

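Gene expression was measured on 12 arrays of HPB-ALL and KOPT-K1, grouped by line and treatment from the labels, 3 cultures per group. Per the submitters' processing notes the authors used RMA; its version is not given in the sources used here. What the authors deposited is a linear ratio: in all 54675 probe sets the 3 DMSO arrays of a line averaged 1 within 1e-06, so levels, a filter on low values and a comparison of the lines in DMSO are lost. No pair of arrays held identical values. Arrays have no depth, and their number limits the precision (median SE within a line 0.0848).

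Ratios were turned into log2 values without a pseudocount, and the probe sets with the same single symbol of the platform annotation were averaged into 19775 genes. Probe sets with several symbols (1801) or none listed (11777) named no gene. Of the single-symbol sets 41043 were matched by gene identifier, and 0 symbols changed. limma 3.58.1 in R 4.3.3 fitted the 4 group means to all 12 arrays (lmFit and eBayes, two-sided, 8 residual degrees of freedom, 12.6 after moderation), and p-values were adjusted over all genes. Single probe sets were fitted the same way. The steps were tested on simulated data. Controls were compared by exact permutation of 3 against 3. Promoter windows came from RefSeq (GRCh38.p14).

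Named genes were a fixed set of factors, up to 8 called rises and falls per line, the 5 largest differences between lines, and up to 4 other translation genes per line and direction. The members, lists and tests were chosen with earlier results of these data known. Alternatives were 18S or spike level as a covariate, median centring, quantile normalization, the median of probe sets, probe sets without the suffix _x_at or _s_at, the line's own arrays only, a replicate block, and leaving out each array.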

Additional observations from a re-analysis of the deposited data

Results flagged for a closer look

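The responses of the lines differed by limma's test of the difference itself for 14 members, given as HPB-ALL minus KOPT-K1 on the log2 scale. The difference was 1.48 for EIF4EBP1, 1.12 for EIF2S2, 0.74 for EIF3C, 0.72 for EIF3J-DT and 0.60 for EIF1. It was 0.46 for EIF3F, 0.44 for EIF3E, 0.42 for EIF2S1, 0.34 for EIF2S3 and 0.31 for EIF5. It was -0.40 for EIF1B-AS1, -0.34 for EIF4A3, -0.33 for EIF4E2 and -0.30 for EIF3G. EIF4EBP1 and EIF2S2 were called under all 19 alternatives, EIF1 under 18 of 19 (adjusted p = 0.0533 with the spike level as a covariate), and EIF1B-AS1 and EIF3G under 7 and 5 of 19.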

How the results depend on the processing

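No called value of a member changed its sign. With the 18S level as a covariate, 0 members were called higher and 0 lower in HPB-ALL (52 genes over the array), and 3 differed between lines with a higher and 0 with a lower HPB-ALL response (324 genes). With the spike level as a covariate, 1 was higher and 3 lower in HPB-ALL (1030 genes), 0 higher and 5 lower in KOPT-K1 (709 genes), and 2 had a higher and 0 a lower HPB-ALL response (251 genes). Under quantile normalization, 0 were higher and 1 lower in HPB-ALL (417 genes), 0 higher and 2 lower in KOPT-K1 (136 genes), and 3 had a higher and 0 a lower HPB-ALL response (211 genes). When sets with the suffix _x_at or _s_at were dropped, 49 members and 17100 genes stayed measured; 1 was higher and 2 lower in HPB-ALL (1019 genes), 1 higher and 18 lower in KOPT-K1 (2498 genes), and 10 had a higher and 3 a lower HPB-ALL response (2270 genes). With the arrays of the line only, 2 were higher and 2 lower in HPB-ALL (1484 genes, against 1846 as reported), and 2 higher and 16 lower in KOPT-K1 (2525 genes). With the replicate block, 1 was higher and 1 lower in HPB-ALL (1261 genes), and 2 higher and 19 lower in KOPT-K1 (3071 genes). Of 25 calls in KOPT-K1 21 were kept, and 9 members had a higher and 1 a lower HPB-ALL response (2616 genes). Deviations from the group mean, taken gene by gene, correlated by -0.0548 to 0.0676 between same-numbered SAHM1 and DMSO arrays of a line. Between differently numbered arrays they correlated by -0.0773 to 0.0616. With 3 arrays per group this cannot show whether same-numbered arrays shared a batch, and the labels give only a number. Median centring and the median of probe sets kept 10 and 9 of 11 calls in HPB-ALL and 24 and 23 of 25 in KOPT-K1. Leaving out 1 array gave 1 to 2 higher and 1 to 4 lower in HPB-ALL (913 to 2012 genes), 1 to 2 higher and 16 to 21 lower in KOPT-K1 (2528 to 3360 genes), and 9 to 13 higher and 2 to 5 lower HPB-ALL responses (2341 to 3369 genes). The cause of these moves was not tested. Ratios hold no signal over background, so weakly expressed probe sets could not be set aside.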
